A study of Mus musculus with 4 samples.

Results

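The transcripts of 6 genes of neurotrophin signalling, namely the ligands Bdnf and Ntf3, their receptors Ntrk2, Ntrk3 and Ngfr, and the activity-regulated surface protein neuritin (Nrn1), were followed through single-cell RNA-seq libraries of the mouse ventromedial prefrontal cortex (vmPFC). The genes were taken as a named list, and all 6 are among the 31053 features of the count matrices. The cells came from the prelimbic and infralimbic areas of male C57BL/6 mice, injected on 1 side at 8 weeks of age with rAAV2-retro viruses that carry EGFP and a target-specific barcode, 1 for each of 5 targets: the agranular insular cortex, dorsomedial striatum, basolateral amygdala, mediodorsal thalamus and lateral hypothalamus. The mice were sacrificed 6 weeks after the injection. Every animal carried all 5 viruses, so no library holds uninjected tissue. The 3 unsorted libraries are 1 mouse each (mouse 1, 2 and 3), and the single sorted library pools EGFP-positive cells of 3 other mice (mouse 4-6). Slices were kept in blockers of AMPA and NMDA receptors (CNQX and D-AP5) before enzymatic dissociation.

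The submitters' annotation gave 9368 excitatory neurons in 7 subtypes, of which 7765 were unsorted and 1603 FAC-sorted. Counts of unique molecular identifiers (UMIs) were summed per library and subtype and are given as CPM, a gene's UMIs relative to all UMIs of the sum, with the mean ± SD of the 3 unsorted libraries. Library totals were 54749198 to 87841541 UMIs. The neurons of the sorted library were deeper, with a median of 31670 UMIs against 21362 to 23213 for those of unsorted mice. Between 5 and 30 cell barcodes were shared by each pair of libraries. Each gene that gives a subtype its name (Calb1, Rorb, Bcl6, Htr2c, S100b, Npy and Syt6) had its highest level in that subtype, and Slc17a7, the vesicular glutamate transporter of these neurons, lay between 704 CPM in L5-Htr2c and 1255 CPM in L5-S100b.

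Neurotrophins are secreted growth factors that bind receptor tyrosine kinases of the Trk family and, with their precursors, the death-domain receptor p75. Brain-derived neurotrophic factor (Bdnf) signals mainly through TrkB (Ntrk2), and neurotrophin-3 (Ntf3) mainly through TrkC (Ntrk3), while Ngfr encodes p75. In cortical neurons Bdnf transcription rises with synaptic activity from several alternative promoters, and Nrn1 was found as a gene induced by activity and by neurotrophins. Ntrk2 gives a full-length kinase and truncated forms that lack it, and the truncated forms predominate in astrocytes. Counts from 3′ ends add up all forms of a gene, so that isoforms are not told apart here.

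On GRCm38, the build of the submitters' mm10 reference, Bdnf spans chr2:109674700-109727007 on the plus strand and Ntf3 chr6:126101412-126166910 on the minus strand. Ntrk2 lies at chr13:58806569-59133970 (plus), Ntrk3 at chr7:78175959-78738012 (minus), Ngfr at chr11:95568818-95587735 (minus) and Nrn1 at chr13:36725361-36735131 (minus). All 6 are annotated as protein coding. A gene on the opposite strand overlaps 4 of them, and whether the counting used strand is not given in the sources used here. The largest such counts in the neurons were 4198 for Gm47423 within Ntrk2 (101508 counts), 3254 for Fars2 at Nrn1 (65943 counts) and 2544 for Gm9885 within Ntrk3 (45531 counts), while Gm45346 opposite Bdnf had 5 against 17261. On the same strand, C630044B11Rik overlaps Ntrk2, and Gm44607 and Gm39038 overlap Ntrk3. Counts of these genes are not given here.

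Bdnf has 7 promoter windows in the RefSeq table for GRCm38.p6, and the pair that holds TCGTG is shown because Npas4 is among the immediate early genes read beside Bdnf below. The windows end at the base before a transcript start and are 250 bases long. They were searched on both strands for TGACGTCA (the full cyclic AMP response element), TGACG (its core), TCGTG (a motif of NPAS4-type factors) and TGANTCA (AP-1). TGACG also lies within every TGACGTCA. Of 32851 windows of the same length, 1.55% hold TGACGTCA, 17.8% TGACG, 13.3% TCGTG and 6.75% TGANTCA. Among the 7 Bdnf windows, 0 held TGACGTCA, 1 held TGACG, 2 held TCGTG and 1 held TGANTCA. The windows with TCGTG are chr2:109674450-109674699, which precedes the first annotated exon, and chr2:109692186-109692435, within an intron of the longer transcripts and directly before the exon known as exon IV. Capitals mark TGACG or TCGTG on either strand, and the TGACG core of the second window, read on the minus strand as CGTCA, lies at position -35 from the transcript start. The TGANTCA match, at position -152, is in a window not printed, chr2:109676782-109677031.
Bdnf, chr2:109674450-109674699, plus strand: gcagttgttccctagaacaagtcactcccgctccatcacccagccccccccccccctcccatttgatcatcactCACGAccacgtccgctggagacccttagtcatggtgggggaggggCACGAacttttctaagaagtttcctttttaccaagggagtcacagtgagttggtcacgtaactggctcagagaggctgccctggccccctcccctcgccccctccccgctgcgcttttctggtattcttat
Bdnf, chr2:109692186-109692435, plus strand: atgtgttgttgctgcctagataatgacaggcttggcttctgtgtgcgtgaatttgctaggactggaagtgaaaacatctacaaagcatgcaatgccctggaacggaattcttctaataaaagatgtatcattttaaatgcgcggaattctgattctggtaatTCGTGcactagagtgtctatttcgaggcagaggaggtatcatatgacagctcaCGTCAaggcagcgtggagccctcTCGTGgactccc
No count in the 3′ libraries tells which of these promoters a Bdnf transcript came from. Ntf3 (2 windows), Ngfr (1) and Ntrk2 (1) held none of the 4 motifs in these windows, and Ntrk3 and Nrn1 were not matched.

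Bdnf was detected in every subtype, with its highest level in the layer 2/3 neurons marked by Rorb. In L2/3-Rorb the 3 unsorted libraries held 234, 189 and 249 CPM (mean 224 ± 31.6 SD, n = 3), followed by 187, 159 and 154 CPM in L6-Npy (166 ± 17.6). All 3 libraries of L2/3-Rorb lay above all 3 of L6-Npy, which in turn lay above L5-S100b. L5-S100b (117 ± 10.0 CPM), L2/3-Calb1 (96.1 ± 18.3) and L5-Bcl6 (94.9 ± 26.1) overlapped with their neighbours in this order. Levels were far lower in L6-Syt6, the most numerous subtype, at 20.2, 22.8 and 25.2 CPM, and in L5-Htr2c, at 8.73, 26.5 and 5.87 CPM. The latter 2 subtypes were not apart from each other. The ratio of the highest to the lowest mean was 16.4-fold, or 4.03 on the log2 scale, and without unsorted library 2, which held the highest L5-Htr2c value, it was 5.05 on that scale.

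Ntf3 was sparse and concentrated in one layer 2/3 subtype. L2/3-Calb1 held 12.3, 13.3 and 9.68 CPM (11.8 ± 1.87, 71 UMIs in 317 cells), and all 3 values were above those of the other 6 subtypes. L6-Syt6 came next with 1.61, 1.77 and 1.85 CPM (174 UMIs in 4319 cells). The other 5 subtypes were at or below 0.919 CPM on average, with 13 UMIs in L6-Npy, 7 in L5-Bcl6 and 1 each in L2/3-Rorb, L5-Htr2c and L5-S100b. The ligands thus peaked in different layer 2/3 subtypes. Bdnf was highest in L2/3-Rorb, where Ntf3 gave 1 UMI in 564 cells. Ntf3 was highest in L2/3-Calb1, which stood in the middle of the order for Bdnf but still held more Bdnf (96.1 CPM) than Ntf3.

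The TrkB transcript varied least of the 6 between subtypes. Ntrk2 was highest in L2/3-Rorb at 563, 538 and 549 CPM (549.7 ± 12.4) and next in L5-S100b at 526, 512 and 501 CPM (513 ± 12.5). The lowest level was in L2/3-Calb1 at 272, 295 and 291 CPM (286 ± 12.3), with L5-Htr2c above it at 316 ± 10.4 CPM. Both ends of the order were apart in all 3 libraries, whereas L5-Bcl6, L6-Npy and L6-Syt6 (381 to 393 CPM) overlapped. The highest mean was 1.92-fold the lowest.

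The TrkC transcript divided the subtypes differently. Ntrk3 was high in L5-Bcl6 (318, 312 and 285 CPM, 305 ± 17.6) and L2/3-Calb1 (314, 292 and 275 CPM, 294 ± 19.3), which overlapped. It lay between 167 and 193 CPM in L6-Npy, L6-Syt6, L2/3-Rorb and L5-S100b, and neighbours among these 4 overlapped. L5-Htr2c stood below all others at 15.7, 18.1 and 18.9 CPM (17.6 ± 1.67), a ratio of 17.3-fold between the highest and the lowest mean.

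The p75 transcript was near 0 outside L5-Htr2c. Ngfr gave 5.24, 6.98 and 4.57 CPM there (5.59 ± 1.24, 26 UMIs in 317 cells), 11 UMIs in the 4319 cells of L6-Syt6 and 1 UMI in L5-S100b. No UMI was found in the unsorted neurons of the other 4 subtypes. A count of 0 allows up to 3 UMIs, or 0.496 CPM in L2/3-Calb1, which places L5-Htr2c at least 11.3-fold higher than that limit. L5-Htr2c thus had the highest Ngfr and the lowest Ntrk3, and its Bdnf level was not apart from that of L6-Syt6.

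Nrn1 was the member whose order was resolved throughout. From the top it ran through L2/3-Rorb (889 ± 7.59 CPM), L5-S100b (771 ± 36.7), L5-Htr2c (545 ± 17.2), L6-Npy (505 ± 16.9), L2/3-Calb1 (334 ± 8.64), L5-Bcl6 (115 ± 11.1) and L6-Syt6 (75.8 ± 5.26). The libraries of neighbouring subtypes did not overlap at any of the 6 steps, where the median gene was apart at 1 step. The highest mean was 11.7-fold the lowest.

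The subtype labels were themselves made by clustering these cells on their expression, so the levels are a description without a test. Among 16250 genes with at least 21 UMIs, 29.7% had a highest subtype apart from all others in the 3 unsorted libraries, and 5 of the 6 members did (all but Ntrk3). A lowest subtype apart from the rest was found for 19.7% of these genes and for 3 members, Ntrk2, Ntrk3 and Nrn1. When each neuron was thinned to 10000 UMIs, a Bdnf UMI was found in 66.7% ± 1.99 of L2/3-Rorb neurons, 48.8% ± 2.82 of L6-Npy, 13.6% ± 1.83 of L6-Syt6 and 4.81% ± 2.42 of L5-Htr2c neurons. The corresponding share for Ngfr in L5-Htr2c was 5.09% ± 1.52, and for Ntf3 in L2/3-Calb1 11.5% ± 2.45.

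**Figure D1:**
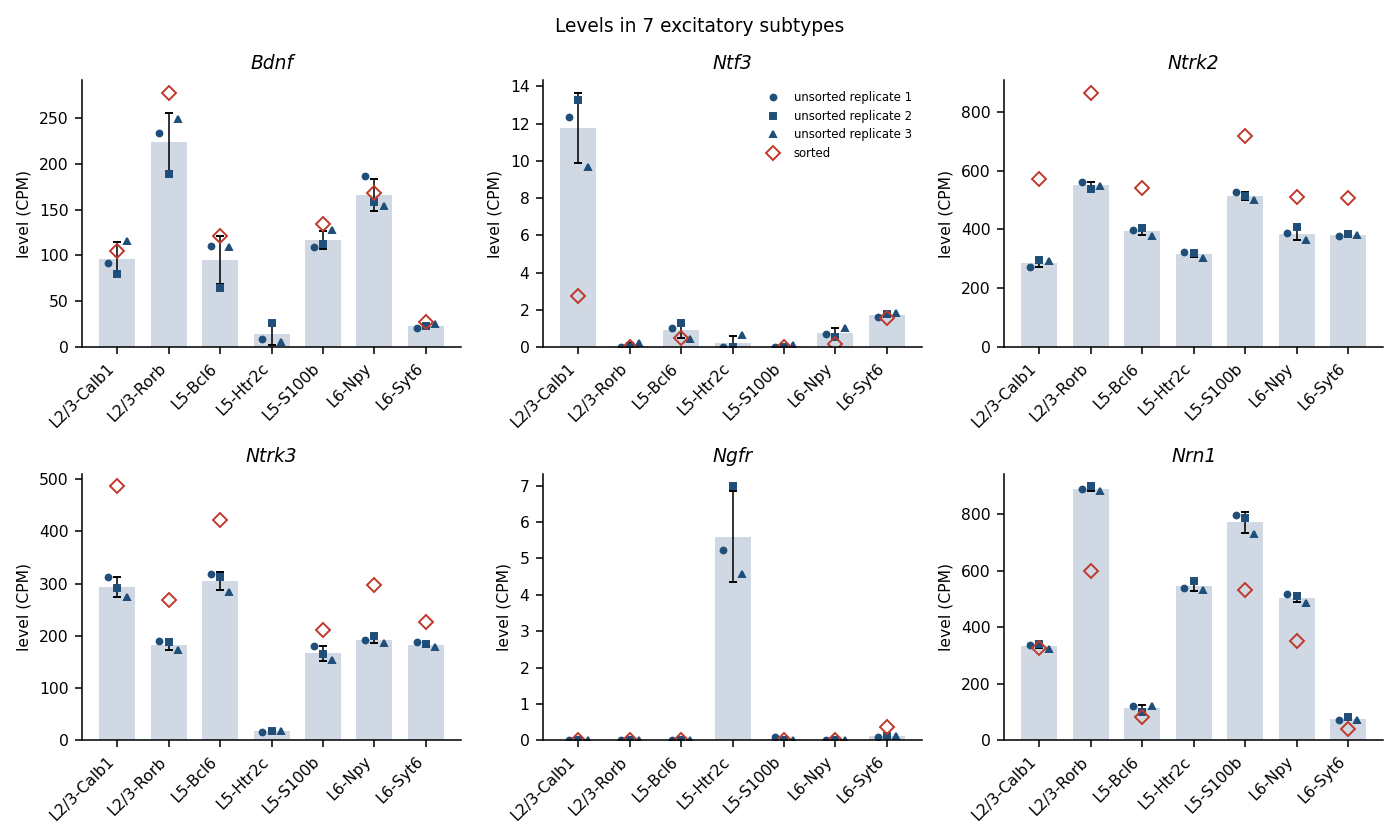
Level of each member in CPM (y axis, linear) in the 7 excitatory subtypes (x axis), with bars for the mean and whiskers for the SD of the 3 unsorted libraries (filled points) and open diamonds for the sorted library, which is left out in L5-Htr2c because it had 4 cells there. Bdnf, Ntrk2 and Nrn1 peak in L2/3-Rorb, Ntf3 in L2/3-Calb1 and Ngfr in L5-Htr2c, and Ntrk3 is lowest in L5-Htr2c.

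The genes whose log2 levels ran most alike over the 21 sums of the unsorted libraries were listed as a description, with r between single genes of the same sums and the same depth. For Bdnf they were Sox9 (Pearson r = 0.961), the neuropeptide Cck (0.957) and Akirin2 (0.954). Ntf3 was nearest to Apoo (0.924), Rps6ka2 (0.899) and Spg21 (0.886). Ntrk2 ran with Ovol2 (0.962), Map1lc3a (0.957) and the synaptic vesicle calcium sensor Syt1 (0.956). Ntrk3 ran with the neurofilament Nefl (0.982), the potassium channel Kcnd3 (0.979) and Rnf112 (0.976). Ngfr was nearest to the kainate receptor subunit Grik1 (0.976), Mirt1 (0.969) and Senp7 (0.966), and Nrn1 to Necab1 (0.957), Ttc3 (0.939) and Fhl1 (0.936). As Ngfr averaged 5.59 CPM in L5-Htr2c and at most 0.110 CPM elsewhere, its r mostly reflects L5-Htr2c against the rest.

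Other ligands and receptors of the family were low or differently placed. Ntf5, the ligand that shares TrkB with Bdnf, reached 1.90 ± 0.993 CPM in L2/3-Rorb (23 UMIs). Sort1, the sortilin co-receptor for proneurotrophins, was broad, from 134 ± 12.4 CPM in L2/3-Calb1 to 58.8 ± 2.78 in L6-Syt6. Its relatives peaked in other subtypes: Sorcs3 in L6-Npy (103 ± 3.01 CPM), Sorcs1 in L5-Bcl6 (79.9 ± 10.2 CPM) and Sorcs2 in L5-Htr2c (50.9 ± 9.05 CPM).

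The viral barcode count allowed neurons of the same library and subtype to be compared by retrograde label. Neurons with 5 or more UMIs of the viral barcode feature (barcode-high, 3915 cells over 6 subtypes) were set against those with 0 (barcode-zero, 3120 cells). Neurons with 1 to 4 UMIs entered neither group. The feature sums the 5 viruses, and a neuron with 0 UMIs may still project to a target. In the sorted library the barcode-zero neurons had also been sorted as EGFP-positive, so they are not the same kind of group as those of the unsorted libraries. L5-Htr2c had 2 to 4 barcode-high cells in a library and could not be compared, and the sorted library of L2/3-Calb1 and L5-Bcl6 had 9 and 5 barcode-zero cells and entered neither test. Summed counts were tested with edgeR's quasi-likelihood test with the library as a block and Benjamini-Hochberg adjustment over all genes tested, and a gene was called at an adjusted p under 0.05 with a log2 fold change of at least 0.5. Genes called made up 0.18% of 8340 tested in L2/3-Calb1, 0.139% of 10038 in L2/3-Rorb, 0.0686% of 8752 in L5-Bcl6, 2.7% of 11477 in L5-S100b, 0.801% of 10365 in L6-Npy and 1.67% of 13030 in L6-Syt6. One member was called, Bdnf, in both layer 6 subtypes. Bdnf, Ntrk2, Ntrk3 and Nrn1 passed the filter on low counts in all 6 subtypes, Ntf3 in L6-Syt6 alone and Ngfr in none.

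Bdnf rose with the label in L6-Npy. The barcode-high neurons held 230.1, 199.8 and 178 CPM in unsorted libraries 1 to 3 and 232 CPM in the sorted library, and the barcode-zero neurons of the same libraries held 149, 160.1, 141 and 133 CPM. All 4 libraries were higher in the barcode-high neurons and the 2 groups did not overlap. This is a log2 fold change of 0.53, with an SE of 0.0751 and an edgeR adjusted p of 1.53e-05. Without the sorted library it was 0.43 with an adjusted p of 0.000407, under the fold limit. The call was also lost when 1 or more barcode UMIs defined the labelled group (0.23, adjusted p = 0.0992) and without the library block (0.53, adjusted p = 0.701).

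Bdnf also rose in L6-Syt6, where its level was low. Barcode-high neurons held 29.1, 29.6 and 35.4 CPM in the unsorted libraries against 16.2, 19.7 and 20.7 CPM in barcode-zero neurons. The sorted library showed 28.5 against 28.6 CPM, so that 3 of 4 libraries were higher and the sorted library was level. This is a log2 fold change of 0.68, with an SE of 0.0987 and an edgeR adjusted p of 0.00727. Leaving out any one unsorted library ended the call at log2 fold changes of 0.59, 0.69 and 0.61 (adjusted p of 0.0775, 0.0943 and 0.0680 without library 1, 2 and 3), whereas without the sorted library the log2 fold change was 0.76 (adjusted p = 1.83e-15). With 1 or more barcode UMIs it was 0.45 (adjusted p = 0.0416), under the fold limit, and without the block 0.64 (adjusted p = 0.0582).

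In the upper layers Bdnf was not called. L2/3-Rorb held 258, 193, 261 and 319.6 CPM in barcode-high neurons against 165, 175, 223 and 182.5 CPM in barcode-zero neurons (unsorted 1 to 3, then sorted). All 4 libraries were higher, with overlapping groups, and the log2 fold change of 0.44 (SE 0.0821, edgeR adjusted p = 0.00142) lay under the fold limit. It passed the limit without unsorted library 2 (0.54) or 3 (0.52), and its adjusted p was 0.256 without library 1. In L2/3-Calb1 the values were 150.1, 76.9 and 147 against 63.5, 82.2 and 98.3 CPM, with 2 of 3 libraries higher (log2 fold change 0.60, SE 0.173, adjusted p = 0.312). The log2 fold change there was 0.30 without library 1 and 0.87 without library 2 (adjusted p of 0.998 and 0.128). In layer 5, L5-S100b gave 0.05 (SE 0.0962, adjusted p = 0.833) with 2 of 4 libraries higher, and L5-Bcl6 gave 0.38 (SE 0.253, adjusted p = 0.867), where the barcode-zero sum of unsorted library 2 held 3 UMIs.

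Nrn1 differed with the label in opposite directions in L5-S100b and L6-Syt6. In L5-S100b barcode-high neurons held 847, 821.5, 759 and 567 CPM against 646, 631, 547 and 419.5 CPM (unsorted 1 to 3, then sorted). Each library was higher in its barcode-high neurons, though the sorted library lay below the unsorted ones in both groups. On the log2 scale this is 0.45, with an SE of 0.0492 and an edgeR adjusted p of 1.74e-07, under the fold limit (adjusted p = 0.423 without the library block). In L6-Syt6 the values were 63.5, 74.3, 60.6 and 33.5 against 75.5, 87.6, 78.6 and 47.9 CPM. Here all 4 libraries were lower in the barcode-high neurons, with a log2 fold change of -0.28 (SE 0.0511, edgeR adjusted p = 0.0163). With any one unsorted library left out the log2 fold change was -0.31, -0.31 and -0.26 with an adjusted p of 0.0897 to 0.115. Without the sorted library it was -0.25 (adjusted p = 1.21e-06), and without the library block -0.32 (adjusted p = 0.696).

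In the other 4 subtypes Nrn1 ranged from -0.57 to 0.49. In L6-Npy all 4 libraries were higher by 0.30 on the log2 scale (SE 0.0495, edgeR adjusted p = 0.000196). In L2/3-Calb1 the 3 libraries held 470.0, 383 and 395 CPM against 287, 339 and 263 CPM, which did not overlap (0.49, SE 0.105, adjusted p = 0.0273), but the adjusted p was 0.664 without library 1 and 0.154 without library 3. Without library 2 it passed the fold limit (0.65, adjusted p = 0.0228). L2/3-Rorb gave 0.18 (SE 0.0494, adjusted p = 0.131). L5-Bcl6 gave -0.57 (SE 0.159, adjusted p = 0.313) with 0 of 3 libraries higher, and -0.78 (adjusted p = 0.00103) without unsorted library 3.

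None of the receptors was called. Ntrk2 in L6-Npy held 419.8, 475, 414 and 613 CPM in barcode-high neurons against 364, 353, 321 and 419 CPM in barcode-zero neurons. All 4 libraries were higher, at a log2 fold change of 0.41 (SE 0.0524, edgeR adjusted p = 5.89e-06), under the fold limit (adjusted p = 0.918 without the library block). In the other 5 subtypes Ntrk2 ranged from -0.01 in L6-Syt6 (adjusted p = 0.899) to 0.20 in L2/3-Calb1 (adjusted p = 0.912), and none passed the adjusted p. Ntrk3 ranged from -0.13 in L2/3-Calb1 to 0.16 in L5-Bcl6, with the smallest adjusted p, 0.527, in L6-Npy. Ntf3 in L6-Syt6 gave 0.37 (SE 0.221, adjusted p = 0.333), with 3 of 4 libraries higher. Ngfr had at most 4 UMIs in a sum of either group in the 6 subtypes.

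**Figure D2:**
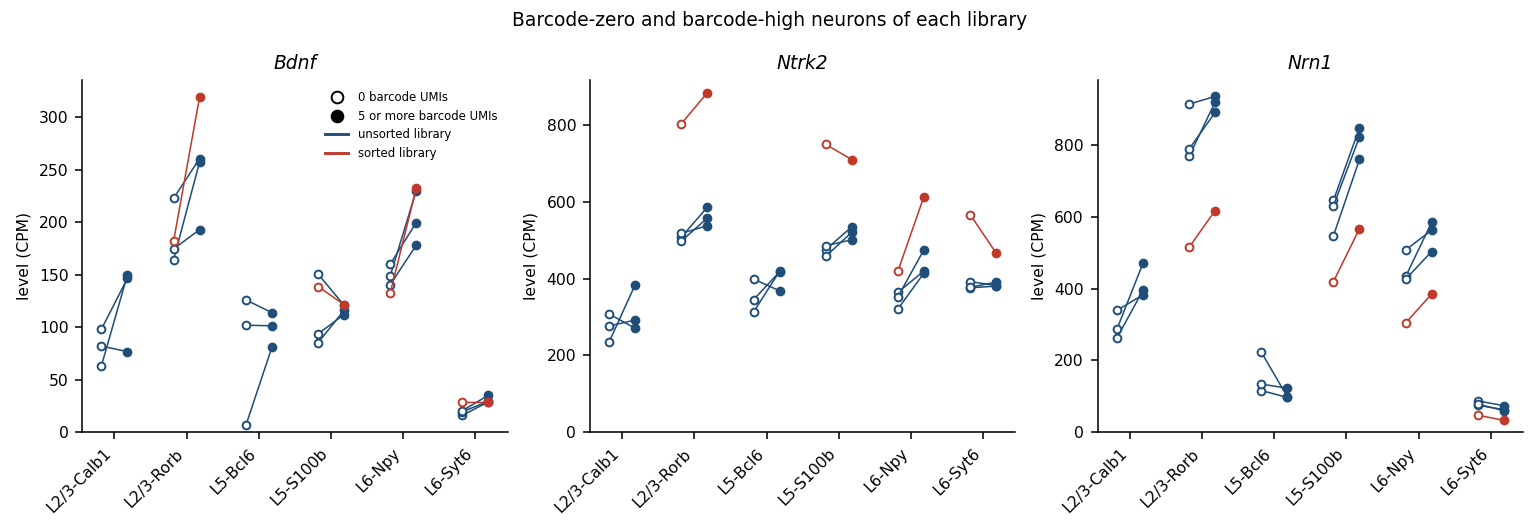
Level in CPM (y axis, linear from 0) of Bdnf, Ntrk2 and Nrn1 in the barcode-zero (open) and barcode-high (filled) neurons of each library, joined by a line, for 6 subtypes (x axis), with the sorted library in red. Bdnf lines slope upward in all 4 libraries of L6-Npy and L2/3-Rorb, Nrn1 lines upward in all 4 of L5-S100b and downward in all 4 of L6-Syt6, and the sorted library lies above the others for Ntrk2 and below them for Nrn1.

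Whether the effect of the label differed between subtypes was tested as an interaction over the 4 subtypes with all 4 libraries (L2/3-Rorb, L5-S100b, L6-Npy and L6-Syt6). The interaction passed an adjusted p of 0.05 for 7.37% of 12081 genes, and for 2 of the 4 members tested. Nrn1 differed between subtypes (edgeR adjusted p = 3.53e-07) and so did Ntrk2 (adjusted p = 0.0032). Bdnf did not pass (adjusted p = 0.0523) and Ntrk3 did not (adjusted p = 0.562). Without unsorted library 2 the adjusted p was 0.0639 for Ntrk2 and 0.0439 for Bdnf, and without the sorted library it was 0.00121 for Bdnf.

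Bdnf and Nrn1 belong to the genes that neurons induce with activity, and a list of 15 immediate early genes was read beside them. In L6-Npy 13 of 15 were called higher in barcode-high neurons. The median log2 fold change of the list was 0.80, against -0.00256 for all genes tested. The called genes include the nuclear receptor Nr4a2 (1.55, SE 0.108, edgeR adjusted p = 4.41e-12), Egr2 (1.23), Egr4 (1.18) and Nr4a1 (1.08). The synaptic regulator Arc (0.85) and Npas4 (0.86), a factor known to act on Bdnf promoters, are also among them. In L6-Syt6 8 of 15 were called higher (median 0.51), with Egr4 at 0.90, Ptgs2 at 0.80, Dusp1 at 0.69 and Npas4 at 0.67. In L2/3-Calb1 5 of 14 were called higher (median 0.53), led by Egr4 (1.59) and Ier2 (1.33). L5-S100b had 4 of 15 called (Egr3, Nr4a1, Arc and Npas4, 0.50 to 0.61), L2/3-Rorb 1 of 15 (Egr4, 0.50) and L5-Bcl6 0 of 14. In L5-Bcl6 Nr4a3 (0.57, edgeR adjusted p = 0.722) and Egr4 (0.46, adjusted p = 0.791) were largest. Of these 14, 1 had an unadjusted edgeR p under 0.05 in L5-Bcl6, as had 579 of all 8752 genes tested there. Over all genes edgeR called 6 there and DESeq2 0. Called or not, values were positive for 14 of 14 genes in L5-Bcl6 and L2/3-Calb1. They were positive for 14 of 15 in L2/3-Rorb and L5-S100b and 15 of 15 in L6-Npy and L6-Syt6.

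Later effectors of activity, apart from Bdnf and Nrn1, were called in 5 of the 6 subtypes. Of 10 tested in L6-Npy 9 were positive and 4 were called higher: Nptx2 (0.91), Gadd45b (0.74), the secretogranin Scg2 (0.61) and Vgf (0.56). Nptx2 is a secreted organiser of excitatory synapses and Vgf a neuropeptide precursor induced by BDNF. Gadd45b and Gadd45g rose in L2/3-Calb1 (1.02 and 1.09) and in L6-Syt6 (0.78 and 0.60), Nptx2 (1.20) and Homer1 (0.50) in L5-S100b and Vgf (0.52) in L2/3-Rorb. In L6-Syt6, though, 3 of the 10 tested had a positive value, with a median of -0.10 against -0.00515 for all genes. Vgf there held 106, 91.2, 104 and 93.6 CPM in barcode-high against 119, 119, 124 and 145 CPM in barcode-zero neurons, lower in all 4 libraries (-0.30, adjusted p = 0.0283, under the fold limit). In L5-Bcl6 0 of 8 were called, with the largest value, 1.5, for Scg2 (adjusted p = 0.0991). L5-S100b thus had Nptx2 and Arc among the genes that rose while Bdnf held a log2 fold change of 0.05.

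Depth, and in some subtypes the markers of non-neuronal classes, moved with the label. Both are given beside these genes. Barcode-high neurons had the higher median UMI count in every library of all 6 subtypes, for example 24582 to 38604 against 21684 to 30096 in L6-Syt6. The summed level of 50 markers of non-neuronal classes was lower in barcode-high neurons in all 4 libraries of L5-S100b (153 to 178 against 164 to 187 CPM), L6-Npy (157 to 177 against 176 to 233 CPM) and L6-Syt6 (59.2 to 104 against 89.5 to 132 CPM). It was higher in barcode-high neurons in 2 of 3 libraries of L2/3-Calb1 and of L5-Bcl6 and in 2 of 4 of L2/3-Rorb. The summed immediate early genes were 4433 to 5925 against 2346 to 3910 CPM in L6-Npy and 5812 to 6238 against 3576 to 4920 CPM in L6-Syt6. In L5-S100b they were 3222, 3048, 3251 and 3495 against 3070, 2172, 3234 and 1803 CPM (unsorted 1 to 3, then sorted). L2/3-Rorb held 3803 against 4390 CPM in unsorted library 2 but 5579 against 2382 in the sorted library. The sorted barcode-zero neurons numbered 24 in L5-S100b and 15 in L2/3-Rorb. The sum was higher in all 3 libraries of L2/3-Calb1, 3 of 4 of L2/3-Rorb and 2 of 3 of L5-Bcl6 (2129 against 3021 CPM in unsorted library 3). With neurons of under 10000 UMIs left out of both groups, Bdnf gave 0.55 in L6-Npy (edgeR adjusted p = 2.05e-05) and 0.68 in L6-Syt6 (adjusted p = 0.00455). Whether these markers reflect stray transcripts, and the part of such transcripts in the results, was not tested.

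**Figure D3:**
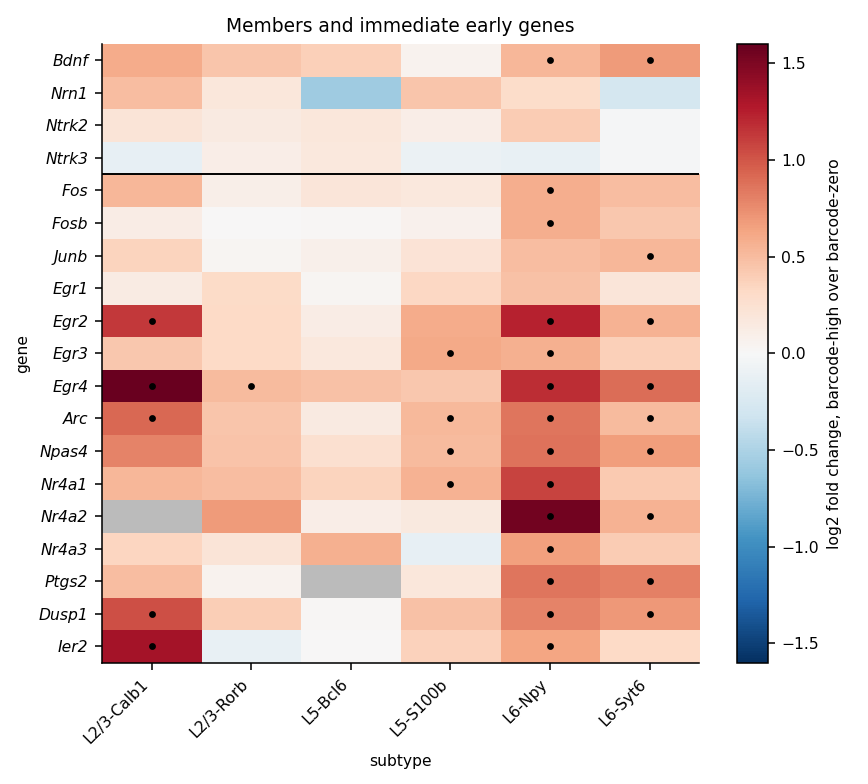
Log2 fold change of barcode-high over barcode-zero neurons (colour scale, red higher) for 4 members (above the line) and 15 immediate early genes (rows) in 6 subtypes (columns), with a dot where the gene was called and grey where it was not tested. The column of L6-Npy holds 13 called immediate early genes beside Bdnf, and that of L6-Syt6 holds 8.

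The lists of genes around the ligands and receptors held 3 calls in 309 tests over the 6 subtypes, or 0.971%, near the 1.04% of all genes tested in the same fits. Of 12 genes that process or clear neurotrophin precursors, 8 were tested in each subtype and 2 were called, both lower: Plat, the plasminogen activator tPA, in L5-S100b (-0.52, edgeR adjusted p = 0.0447) and the convertase Pcsk5 in L6-Syt6 (-0.62, adjusted p = 0.0101). Serpini1, the tPA inhibitor neuroserpin, stood at 0.43 in L5-S100b (adjusted p = 2.85e-06), under the fold limit, and is named after its value was seen. Of 35 adaptors and kinases downstream of Trk receptors, 26 to 34 were tested and 1 was called, the ribosomal S6 kinase Rps6ka2 in L5-S100b (-0.57, adjusted p = 0.0467). The adaptor Irs2 stood at 0.46 in L6-Syt6 (adjusted p = 0.00433) and 0.49 in L6-Npy (adjusted p = 0.131). Of the 8 other ligands and receptors, 3 to 5 were tested in a subtype and edgeR called 0, with 2 of 24 tests at an unadjusted p under 0.05. Their largest values were Sorcs2 in L2/3-Calb1 (-0.56, adjusted p = 0.852) and Sorcs1 in L5-Bcl6 (0.35, adjusted p = 0.767), and Sorcs3 in L5-S100b passed the adjusted p but not the fold limit (-0.33, adjusted p = 0.0409). Of the 11 partners of p75, 8 to 11 were tested in a subtype and 0 called, with 8 of 55 tests at an unadjusted p under 0.05. The largest values were Ripk2 (-0.70, adjusted p = 0.306) and Traf6 (0.60, adjusted p = 0.440), both in L5-S100b. Among all genes, an unadjusted edgeR p under 0.05 was found for 473 of 8340 in L2/3-Calb1, 681 of 10038 in L2/3-Rorb and 579 of 8752 in L5-Bcl6. It was found for 1970 of 11477 in L5-S100b, 1096 of 10365 in L6-Npy and 3307 of 13030 in L6-Syt6. The lists were not tested against these shares.

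The sorted library was set beside the unsorted ones as a description, since it is a single library of pooled mice and no test was possible. A gene was counted as higher or lower where the sorted level was above or below all 3 unsorted libraries and at least 0.5 from their mean on the log2 scale. Genes counted as higher made up 25.9%, 17.1%, 16.4%, 11.4%, 17% and 8% of those tested in L2/3-Calb1, L2/3-Rorb, L5-Bcl6, L5-S100b, L6-Npy and L6-Syt6, and those counted as lower 14.6%, 14.3%, 11.3%, 9.12%, 12.3% and 3.47%. The median over all genes was shifted by 0.08 to 0.21. Of the members, 10 differences met the rule, 5 higher and 5 lower. By subtype, 2 were higher and 1 lower of 5 tested in L2/3-Calb1 and of 4 in L2/3-Rorb. In L6-Npy 1 was higher and 1 lower of 4. In L5-S100b (4 tested) and L6-Syt6 (5 tested) 0 were higher and 1 lower, and L5-Bcl6 had 0 of 4. Such small numbers cannot be told apart from the shares of all genes.

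Ntrk2 and Ntrk3 stood higher in the sorted library and Nrn1 lower, in the subtypes given here. Ntrk2 was above all 3 unsorted libraries in each of the 6 subtypes, and met the rule in L2/3-Calb1 (573 against 272 to 295 CPM, 2.00-fold) and L2/3-Rorb (864 against 538 to 563 CPM, 1.57-fold). In the other 4 it stood 0.40 to 0.48 higher on the log2 scale. Ntrk3 met the rule in L2/3-Calb1 (486 against 275 to 314 CPM, 1.66-fold), L6-Npy (297 against 187 to 200.5 CPM, 1.54-fold) and L2/3-Rorb (268 against 172 to 190.4 CPM, 1.46-fold, no longer met with TMM-scaled values, 0.46 on the log2 scale). Nrn1 was lower in L6-Syt6 (39.0 against 72.2 to 81.8 CPM, 1.94-fold lower), L2/3-Rorb (598 against 883 to 898 CPM, 1.49-fold lower), L5-S100b (531 against 729 to 797 CPM, 1.45-fold lower) and L6-Npy (351 against 486 to 517 CPM, 1.44-fold lower), but within the range in L2/3-Calb1 (326 against 324 to 339 CPM). In L5-Bcl6 it was below all 3 unsorted libraries (84.0 against 102 to 122 CPM) at -0.45 on the log2 scale, short of the rule.

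Bdnf met the rule in none of the 6 subtypes, with differences of 0.01 to 0.36 on the log2 scale. Ntf3 in L2/3-Calb1 gave 3 UMIs in the 40 sorted cells against 71 in the 317 unsorted cells, a ratio of rates of 0.232 (95% exact interval 0.0467 to 0.705, counting error only). In L6-Syt6, Ntf3 gave 42 sorted against 174 unsorted UMIs, a ratio of 0.899 (0.626 to 1.26). Ngfr in L6-Syt6 gave 10 against 11 UMIs, a ratio of 3.38 (1.29 to 8.78). Sort1 met the rule upward in all 6 subtypes (0.75 to 1.07), as did the adaptor Grb2 and the phosphatase Ptpn11, while the p75 partner Bex1 met it downward in 5 (-0.77 to -1.07). These genes are picked from longer lists. Of the adaptors and kinases, 10 of 34 were higher in L2/3-Calb1 and 5 of 34 in L6-Syt6, against 25.9% and 8% of all genes. The p75 partners went both ways, with 4 higher and 3 lower of 10 in L2/3-Calb1 and 0 higher and 1 lower of 11 in L6-Syt6. The sorted and unsorted libraries differ in mice, sorting and depth, which cannot be told apart here. The summed level of the 50 markers of non-neuronal classes was also lower in the sorted library in 5 subtypes: 69.9 against 119 to 120.2 CPM in L6-Syt6, 75.2 against 118 to 138 in L2/3-Rorb, 85.3 against 102 to 118 in L2/3-Calb1, 153 against 167 to 175 in L5-S100b and 166 against 178 to 194 in L6-Npy. In L5-Bcl6 it was within the range (181 against 175 to 199 CPM), and its part in these differences was not tested.

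**Figure D4:**
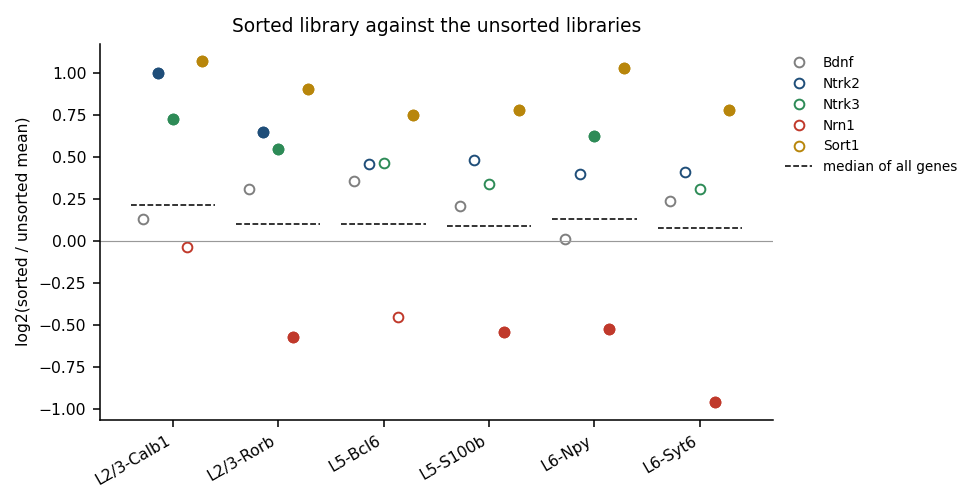
Log2 ratio of the level in the sorted library to the mean of the 3 unsorted libraries (y axis) for 4 members and Sort1 in 6 subtypes (x axis), filled where the sorted level met the rule, with the median of all genes as a dashed line. Ntrk2, Ntrk3 and Sort1 lie above the dashed line in all 6 subtypes and Nrn1 below it.

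For the other cell classes, all filtered cells of the 4 libraries were clustered with the members and pathway lists left out, and clusters were named from fixed markers as astrocyte-like, OPC-like (oligodendrocyte precursor), and so on. The excitatory neurons are those of the submitters' annotation, and the levels are those of the 3 unsorted libraries. Of 17232 genes, 44.2% had a highest class apart from all others in the 3 libraries, as had all members but Ngfr. Slc17a7, which marks excitatory neurons, gave UMIs in every class: it was at 1033 CPM in the neurons, 189 ± 37.8 in astrocyte-like cells, 122 ± 103 in smooth muscle-like cells, 46.4 ± 7.92 in inhibitory-like neurons and 21.3 to 75.6 CPM in the others.

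Among the classes, Bdnf and Nrn1 were highest in excitatory neurons. Bdnf averaged 71.4 ± 6.42 CPM there and 3.91 ± 2.49 CPM in inhibitory-like neurons. Astrocyte-like cells held 14.1, 41.0 and 6.40 CPM (43 UMIs), which became 4.34 ± 2.65 CPM (7 UMIs) once cells with a Slc17a7 UMI were left out, an alternative chosen after seeing the data. Nrn1 was at 308 ± 8.08 CPM in excitatory neurons, 130.3 ± 39.1 in astrocyte-like cells and 80.5 ± 6.93 in OPC-like cells. Without cells that held a Slc17a7 UMI, these became 69.4 ± 13.2 in astrocyte-like cells and 82.2 ± 8.10 in OPC-like cells, and inhibitory-like neurons held 3.79 ± 1.61. Single excitatory subtypes were not all above the glial classes. Nrn1 in L6-Syt6 (72.2 to 81.8 CPM) overlapped with OPC-like cells (74.2 to 87.9 CPM). In L5-Bcl6 Nrn1 (115 ± 11.1 CPM) was below the astrocyte-like mean of 130.3 but above that of 69.4. Bdnf in L5-Htr2c (5.87 to 26.5 CPM) overlapped with astrocyte-like cells.

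Both Trk receptors had their highest level in a glial class, Ntrk2 in astrocyte-like and Ntrk3 in OPC-like cells. Ntrk2 held 1091, 999.97 and 1072 CPM in astrocyte-like cells (1055 ± 48.2) and 776 ± 28.1 in OPC-like cells, above inhibitory-like neurons (549 ± 18.5) and excitatory neurons (410 ± 4.76). It stood at 110.2 ± 16.8 CPM in committed precursor-like cells and 21.9 ± 1.87 CPM in oligodendrocyte-like cells. Among the classes, Ntrk3 was highest in OPC-like cells at 224, 223 and 235 CPM (227 ± 6.25), beside 186 ± 7.29 in excitatory and 178 ± 6.04 in inhibitory-like neurons. Among single excitatory subtypes, however, Ntrk3 lay above the OPC-like libraries in L5-Bcl6 (285 to 318 CPM) and L2/3-Calb1 (275 to 314 CPM). It stood at 99.1 ± 25.5 CPM in smooth muscle-like cells, and at 5.65 ± 2.00 in oligodendrocyte-like cells.

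Ntf3 had its highest level in smooth muscle-like cells, the arterial wall class marked by Acta2 and Myh11. The 98 cells held 45.3, 40.7 and 30.1 CPM (38.7 ± 7.79, 20 UMIs), against 1.53 ± 0.105 CPM in excitatory neurons, 0.150 ± 0.00601 in inhibitory-like neurons and 0 in astrocyte-like, OPC-like, endothelial-like and pericyte-like cells. Leaving out cells with a Slc17a7 UMI gave 42.9 ± 4.08 CPM. Ngfr averaged 5.42 ± 1.86 CPM in oligodendrocyte-like cells (5.66, 7.15 and 3.45 CPM, 49 UMIs), overlapping with committed precursor-like cells (2 UMIs).

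Shares of cells with a UMI were also taken at a common depth of 2000 UMIs per cell. They did not always follow the levels. Nrn1 had the higher level in astrocyte-like cells, but shares of 12.6% ± 1.55 there and 13.7% ± 1.07 in OPC-like cells. A Ntrk2 UMI was found in 87.0% ± 2.19 of astrocyte-like and 77.4% ± 2.90 of OPC-like cells, against 53.9% ± 0.806 of excitatory neurons (98.8% before thinning) and 3.18% ± 0.728 of microglia-like cells, taken as the background. Bdnf was found in 10.1% ± 0.838 of excitatory neurons (37.9% before thinning) and 0.63% ± 0.537 of inhibitory-like neurons (2.99% before thinning), with 0.192% ± 0.141 in microglia-like cells as a background. Median depths were 22251 UMIs in excitatory neurons, 3414 in astrocyte-like cells, 13166 in inhibitory-like neurons and 4272 in microglia-like cells.

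**Figure D5:**
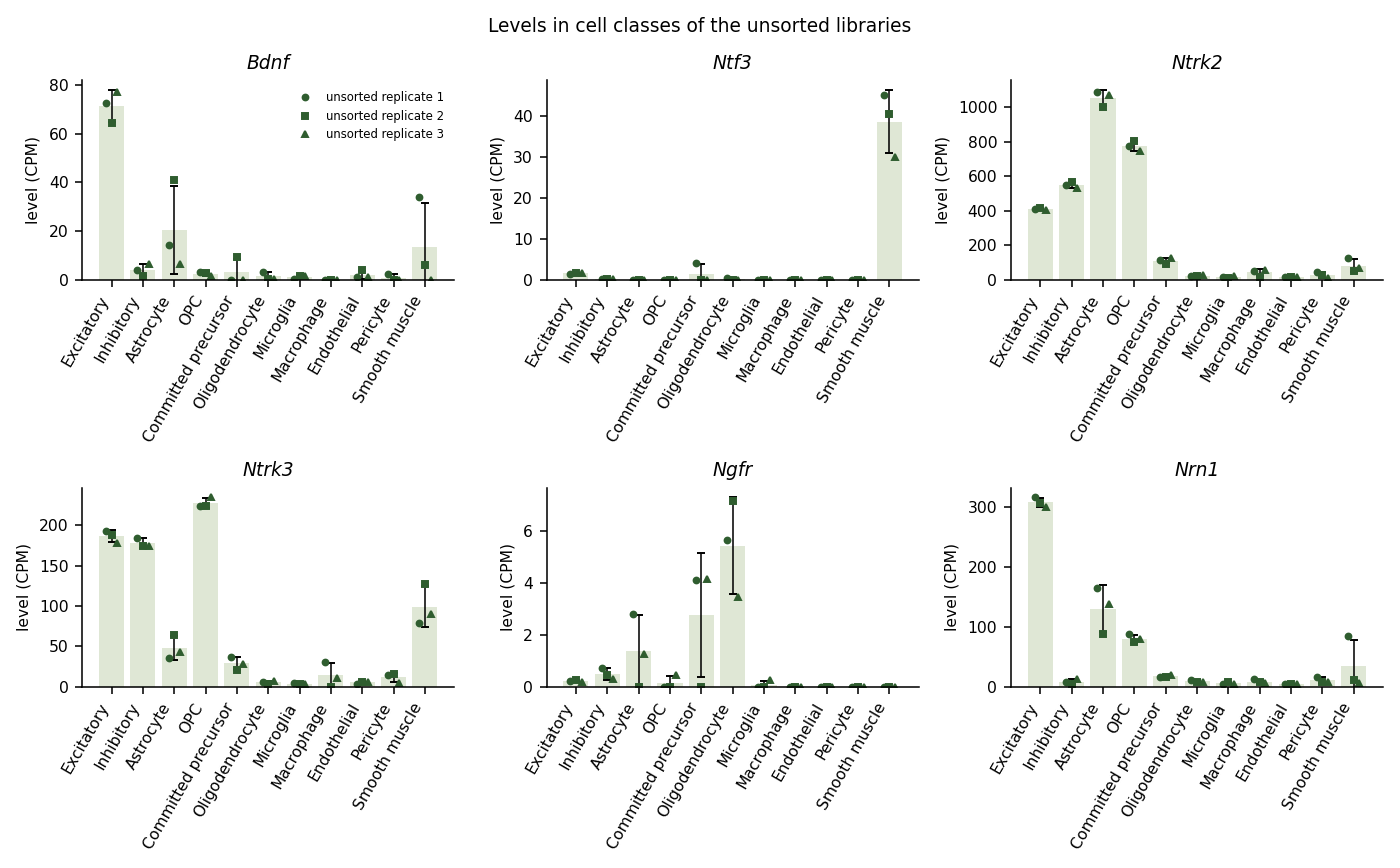
Level of each member in CPM (y axis, linear) in the cell classes of the 3 unsorted libraries (x axis; points are libraries, bars their mean and whiskers the SD). Ntrk2 is highest in astrocyte-like and OPC-like cells, Ntf3 in smooth muscle-like cells and Bdnf and Nrn1 in excitatory neurons.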

How the data were processed

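Single-cell suspensions of the vmPFC gave 4 droplet libraries (3 unsorted, 1 FAC-sorted). The deposited values are raw UMI counts per gene and cell, which the authors made with Cell Ranger on mm10 and did not normalize. Subtypes are those of the authors' deposited annotation, which was made by clustering the same cells. The authors' per-cell differential tests were not used. Total counts per library were 54749198 to 87841541 UMIs.

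The members and gene lists were chosen with earlier results of these data known. All 6 members were named, list genes where called, or else the 2 of a list with the largest log2 fold change. Likeness was Pearson r of log2(CPM + 1) among 9012 genes with a mean of 10 CPM or more.

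Counts were summed per library, subtype and viral barcode group (5 or more UMIs against 0, at least 10 cells in each group, at least 3 libraries) and tested in edgeR 4.0.16 (R 4.3.3): TMM, filterByExpr, quasi-likelihood F test and Benjamini-Hochberg adjustment over all genes tested. The library was a block in this fit, since the barcode-high and barcode-zero neurons of a sum come from the same library. The SE is the log2 fold change divided by the root of F. The unsorted libraries are separate mice and the sorted library is 1 pool. Genes needed 21 counts for the subtype levels and 1 CPM for the sorted comparison. Alternatives were DESeq2 1.42.0, RLE size factors, no filter on low counts, 1 or more barcode UMIs, neurons of 10000 or more UMIs, no block and each library left out.

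For the other classes, cells with 500 to 8000 genes, 1000 to 60000 UMIs and up to 20% mitochondrial counts (21263 cells) were clustered in scanpy 1.11.5 (2000 variable genes without members or lists, 30 components, 15 neighbours, Leiden resolution 1 with leidenalg 0.10.2). Clusters were named from markers, and 11 of 39 (830 cells) stayed unnamed. No doublet caller was run. Shares of cells with a UMI used cells thinned to 10000 UMIs (neurons) or 2000 UMIs (classes), and 52 to 111 neurons of each unsorted library were too shallow and left out. Intervals and limits on counts of 0 (3 counts) cover counting error only. The fits were tested on simulated counts with known changes. Promoter windows are from RefSeq (GRCm38.p6). Some genes of the pathway lists are not reported here.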

Additional observations from a re-analysis of the deposited data

Results flagged for a closer look

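The effect of the viral label on Nrn1 differed between L2/3-Rorb, L5-S100b, L6-Npy and L6-Syt6 in a test of the interaction (edgeR adjusted p = 3.53e-07), with log2 fold changes of 0.18, 0.45, 0.30 and -0.28. The effect on Ntrk2 also differed between these 4 subtypes (edgeR adjusted p = 0.0032), with 0.14, 0.11, 0.41 and -0.01. In 17 groups of 4 libraries, 0 single libraries passed Dixon's limit for an outlying value, which at this size needs a gap of most of the range. The sorted library was nonetheless the lowest for all 5 members tested in L6-Syt6, with gaps of 0.510 to 0.792 of the range, and its Bdnf value there was -0.01 against 0.59 to 0.84 in the unsorted libraries.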

How the results depend on the processing

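Of the values of single members in the barcode contrasts under an alternative, 224 kept their direction and their side of the threshold. Bdnf in L6-Npy was no longer called when 1 or more barcode UMIs defined the labelled group (0.23, edgeR adjusted p = 0.0992) or without the sorted library (0.43), and in L6-Syt6 with 1 or more UMIs (0.45, adjusted p = 0.0416) or without any 1 unsorted library, so that 0 members were called there. Without the replicate block 0 members were called in either subtype (Bdnf adjusted p of 0.701 and 0.0582). The number of members called ranged from 0 to 1 in L2/3-Calb1, L2/3-Rorb, L5-Bcl6, L6-Npy and L6-Syt6 with 1 library left out. For the interaction, 1 member passed with 1 or more barcode UMIs (Ntrk2 adjusted p = 0.0745), and the adjusted p of Bdnf ranged from 0.00121 to 0.495 over the alternatives.

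Signs turned for 6 values, none of them called. With 1 library left out, Ntrk2 ranged from -0.043 to 0.39 in L2/3-Calb1 and from -0.047 to 0.039 in L6-Syt6, Ntrk3 from -0.054 to 0.0090 in L6-Syt6, and Bdnf from -0.087 to 0.80 in L5-Bcl6 and from -0.056 to 0.20 in L5-S100b, where it was -0.018 without library 1. The cause was not tested.

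Called genes in L2/3-Calb1, L2/3-Rorb, L5-Bcl6, L5-S100b, L6-Npy and L6-Syt6 numbered 15, 14, 6, 310, 83 and 218. They numbered 2, 0, 0, 142, 11 and 171 with DESeq2, 18, 0, 1, 56, 0 and 75 without the block, 4, 6, 0, 202, 31 and 27 with 1 or more UMIs, and 32, 28, 22, 355, 115 and 283 without the filter. RLE size factors called 0 in L5-Bcl6. DESeq2 had 132 genes in L2/3-Rorb and 46 in L5-Bcl6 at an unadjusted p under 0.05. With 1 library left out the range was 12 to 26, 2 to 33, 4 to 31, 178 to 289, 45 to 75 and 28 to 309, and the interaction passed for 333 to 1260 genes over its alternatives.

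The log2 ratio of the highest to the lowest subtype for Nrn1 was 3.55, 3.40 as the mean of per-cell CPM and 3.37 with TMM scaling. With Slc17a7-positive cells left out of the other classes, a choice made after seeing the data, astrocyte-like cells differed from excitatory neurons by -4.04 for Bdnf (-1.80 before), 1.52 for Ntrk2 (1.36) and -2.15 for Nrn1 (-1.24), and OPC-like cells then held more Nrn1 than astrocyte-like cells. The sorted comparison held 10 differences of members, and 10 to 12 under its alternatives. Depth limits Ntf3 and Ngfr, which rest on few UMIs per library outside L2/3-Calb1, L6-Syt6 and L5-Htr2c.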
